A study of Mus musculus with 6 samples.

Results

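The 46 genes described here are 16 genes of the ATF4 stress response and 30 aminoacyl-tRNA synthetases, 20 cytosolic and 10 mitochondrial. They were found by gene symbol, all 46 among the 17924 genes of the expression table. The members and the further lists used below were chosen with earlier results of these data known. The counts given for them describe the lists and are no independent support. All 46 had a mean of at least 10 reads over the 6 libraries and so were among the 16252 genes tested. RNA-seq was carried out on cultured dermal fibroblasts from the back skin of newborn C57BL/6J mice, kept for 14 days in a medium that induces adipocytes. The 3 Nelfb-/- libraries came from mice homozygous for a floxed allele (Nelfb fl/fl) with Pdgfra-Cre. The 3 CTL libraries came from mice that also carried Pdgfra-Cre, with the Nelfb genotype fl/wt or wt/wt. As it is driven by Pdgfra, deletion is limited to cells of the Pdgfra lineage, and other cells of the dermis can keep Nelfb. NELFB is a subunit of the negative elongation factor, which holds RNA polymerase II in a paused state near the start of genes. The comparison asks which genes of this stress response and of tRNA charging differ when Nelfb is lost under adipogenic conditions.

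ATF4 is the transcription factor of the integrated stress response. Kinases that sense amino acid shortage, unfolded proteins in the endoplasmic reticulum (ER), double-stranded RNA or mitochondrial and heme stress phosphorylate eIF2alpha, which lowers general translation and raises translation of Atf4 mRNA. ATF4 then acts, often with C/EBP partners, on genes of amino acid synthesis, uptake and tRNA charging, and on factors such as CHOP that limit the response. Aminoacyl-tRNA synthetases load each tRNA with its amino acid. Most amino acids have separate nuclear-encoded synthetases for the cytosol and for mitochondria, and many cytosolic synthetase genes are known ATF4 targets. An mRNA level says nothing of ATF4 protein or of eIF2alpha phosphorylation, neither of which was measured in these libraries.

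The depth was 17.2 to 29.4 M reads (M, 1e+06) per library, and 3 reads, taken as the floor, stood for 0.102 to 0.175 CPM (reads per 1e+06 mapped reads, as deposited). Nelfb (chr2:25199712-25211489) had levels of 17.3, 19.6 and 22.3 CPM in the CTL libraries, in the order of their replicate numbers, and of 5.5, 3.90 and 5.55 CPM in the Nelfb-/- libraries. It fell by 1.99 on the log2 scale (SE 0.22, limma adjusted p = 0.0050), with signal left in every Nelfb-/- library. In a principal component analysis of all genes tested, the first component (59.9% of the variance) parted the genotypes. The second (27.7%) put CTL replicates 1 and 2 with Nelfb-/- replicate 1, and CTL replicate 3 with Nelfb-/- replicates 2 and 3, with CTL replicate 3 and Nelfb-/- replicate 1 at its ends. For the 46 genes, calls at the adjusted p that change without either of these libraries are given with and without it. The summed level of 8 adipocyte markers was 23822 to 40084 CPM in CTL and 15908 to 24176 CPM in Nelfb-/- cells, with 1 marker falling. A marker is said to rise or fall at a limma adjusted p of at most 0.05, which 9.96% of all genes tested met upwards and 5.83% downwards. Of 8 macrophage markers 7 rose, with a sum of 185 to 685 CPM in CTL and 1855 to 5817 CPM in Nelfb-/- cells, highest in replicate 1. Of 8 fibroblast or preadipocyte markers 2 rose, with a sum of 3025 to 12003 CPM in CTL and 6540 to 25702 CPM in Nelfb-/- cells. In this sum CTL replicate 3 was the highest CTL library and Nelfb-/- replicate 1 the lowest Nelfb-/- library. Markers of skeletal muscle (4 of 6 rose, 6.91 to 9.21 CPM in CTL, 42.3 to 68.6 in Nelfb-/-), melanocytes (5 of 6 rose, 48.6 to 73.7 and 51.9 to 168) and Schwann cells (3 of 5 rose and 1 fell, 47.4 to 58.8 and 95.0 to 120) were at low sums, and Myod1, Ckm, Mlana, Tyrp1 and Tyr were at or below the floor in all CTL libraries. Of 6 endothelial and 5 keratinocyte markers 1 each rose, with sums of at most 22 and 14.6 CPM. In cultures of mixed cells, fewer cells of a type and less RNA per cell cannot be told apart. The part of these markers in the results below was not tested.

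Of the 46 genes, 7 fell and 0 rose at a limma adjusted p of at most 0.05, namely Atf4, Atf5, Trib3 and Asns of the ATF4 group and the mitochondrial synthetases Iars2, Nars2 and Wars2. Of all genes tested, 15.8% passed this limit, 5.83% lower and 9.96% higher in Nelfb-/- cells. On the log2 scale, on which all means of this kind were taken, 33 of the 46 genes had a lower mean and 13 a higher mean in Nelfb-/- cells, while 45.4% of all genes tested had a lower one. The median log2 fold change, Nelfb-/- over CTL, was −0.34 over the 46 genes and 0.07 over all genes tested. Every Nelfb-/- library was below every CTL library for 17 genes and above for 2, while the groups did not overlap for 38.1% of all genes tested (16.1% below and 22% above). The 3 groups differed in their medians, with −0.69 for the 16 ATF4 genes, −0.45 for the 10 mitochondrial and −0.02 for the 20 cytosolic synthetases.

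**Figure D1:**
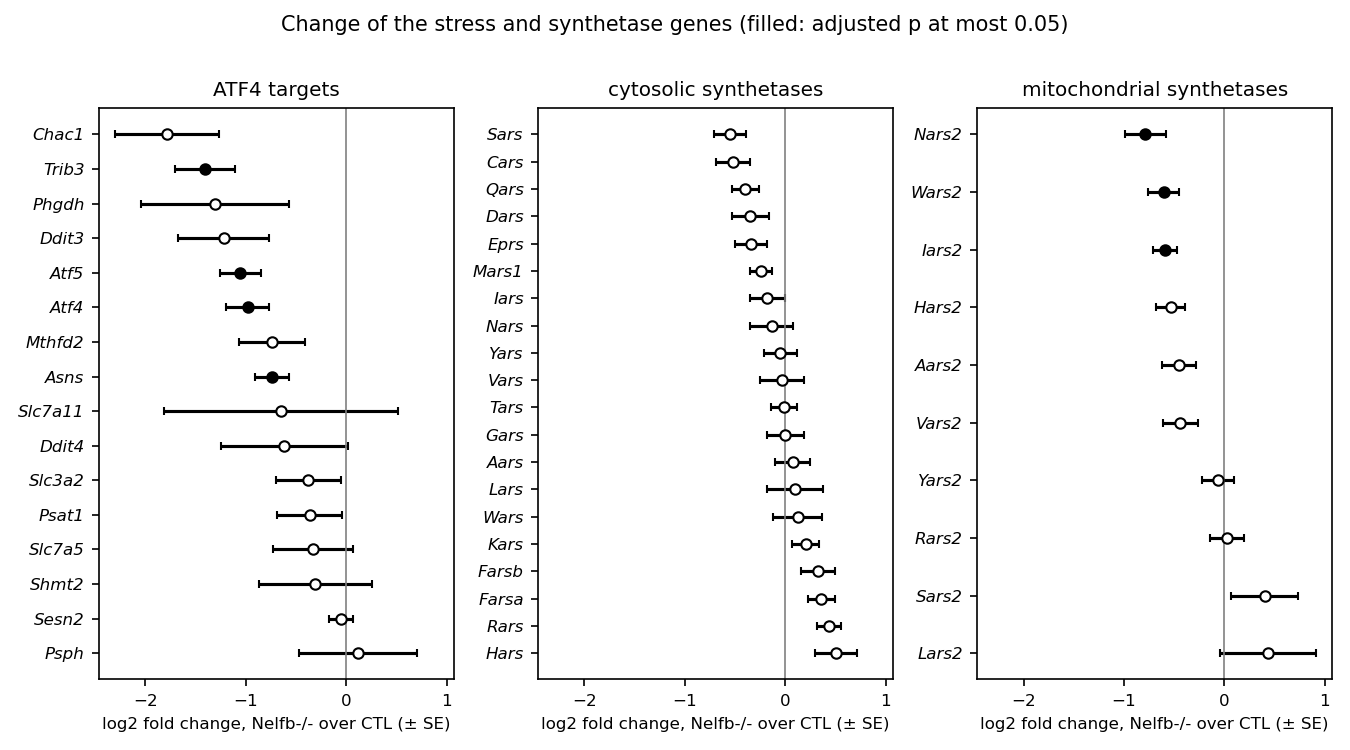
Log2 fold change (Nelfb-/- over CTL, horizontal axis) of each of the 46 genes with its standard error, in 3 panels by group and sorted within each. Filled points have a limma adjusted p of at most 0.05: 4 of 16 ATF4 genes, 0 of 20 cytosolic and 3 of 10 mitochondrial synthetases, all to the left of 0.

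Among the 16 ATF4 genes, 15 had a lower mean in Nelfb-/- cells on the log2 scale and 4 fell, and the 2 genes past both the adjusted p and a 2-fold change were Atf5 and Trib3 (11.2% of all genes tested met both limits, 3.64% lower and 7.58% higher in Nelfb-/- cells). Atf5 and Trib3 are among the adipogenic genes that the study picked from these same libraries, so that their fall is not independent evidence. Atf4 (chr15:80255184-80257541) had levels of 332, 401 and 388 CPM in the CTL libraries, always in the order of replicates 1 to 3, and of 252, 156 and 170 CPM in the Nelfb-/- libraries. All Nelfb-/- libraries were below all CTL libraries, with replicate 1 the nearest to CTL. Atf4 fell by 0.98 on the log2 scale (SE 0.22, limma adjusted p = 0.030), a 1.98-fold difference, just short of the 2-fold limit, and by 1.19 without Nelfb-/- replicate 1, which is past it.

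Atf5 (chr7:44812256-44816658), a relative of ATF4 that is also known for a role in the mitochondrial stress response and in adipogenesis, was at 384, 344 and 524 CPM in CTL and at 206, 174 and 216 CPM in Nelfb-/- cells. It fell by 1.05 (SE 0.20, limma adjusted p = 0.020), with no overlap of the groups, and by 0.88 without CTL replicate 3, which is less than 2-fold. Trib3 (chr2:152337422-152344032), a pseudokinase that restrains ATF4 and AKT signalling, was at 60.1, 68.1 and 127 CPM in CTL and at 28.7, 27.1 and 36.1 CPM in Nelfb-/- cells. It fell by 1.40 (SE 0.30, limma adjusted p = 0.027), and CTL replicate 3 stood well above the other CTL libraries. Asns (chr6:7675169-7693254), asparagine synthetase and a classical ATF4 target, was at 119, 124 and 152 CPM in CTL and at 65.9, 83.3 and 88.3 CPM in Nelfb-/- cells. Its groups did not overlap, and it fell by 0.74 (SE 0.17, limma adjusted p = 0.034).

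These calls were close to the limit. With 1 library left out at a time, the adjusted p of Atf4 lay between 0.012 and 0.12 and missed the limit without CTL replicate 1 or 2 or Nelfb-/- replicate 2 or 3. That of Atf5 lay between 0.018 and 0.077 and missed it without CTL replicate 1 or Nelfb-/- replicate 2 or 3. That of Trib3 lay between 0.014 and 0.088 and missed it without CTL replicate 2 or any of the Nelfb-/- replicates. That of Asns lay between 0.046 and 0.10 and missed it without the same 4 libraries as Atf4. All 4 genes stayed lower in Nelfb-/- cells in each of these fits. In a test of each gene alone, without variance shared across genes, none of the 4 passed (adjusted p of 0.084 for Atf4, 0.064 for Atf5, 0.097 for Trib3 and 0.082 for Asns), and limma without the abundance trend gave an adjusted p of 0.056 for Asns.

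The stress factors Ddit3 and Chac1 were split within the Nelfb-/- group. Chac1 (chr2:119351229-119354381), which breaks down glutathione, was at 19.1, 26.6 and 28.5 CPM in CTL and at 15.8, 3.73 and 5.92 CPM in Nelfb-/- cells. Its log2 fold change was the most negative of the 46 (−1.78, SE 0.52), but it did not pass (limma adjusted p = 0.063). Ddit3 (chr10:127290774-127296288), which encodes CHOP, was at 65.9, 60.8 and 143 CPM in CTL and at 62.0, 24.5 and 29.8 CPM in Nelfb-/- cells, and the groups overlapped (log2 fold change −1.22, SE 0.45, limma adjusted p = 0.12). For Chac1 all Nelfb-/- libraries were below all CTL libraries, with Nelfb-/- replicate 1 the nearest to CTL. For Ddit3 Nelfb-/- replicate 1 lay among the CTL libraries, and replicates 2 and 3 lay below all of them. Without Nelfb-/- replicate 1 both genes passed, with limma adjusted p = 0.012 for Chac1 and 0.046 for Ddit3.

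The cystine and glutamate exchanger was the most divided. Slc7a11 (chr3:49892526-50443614), its transport subunit, was described after its values were seen. It was at 32.1, 28.6 and 15.3 CPM in CTL and at 114, 4.90 and 6.50 CPM in Nelfb-/- cells. Nelfb-/- replicate 1 was thus the highest of all 6 libraries and replicates 2 and 3 the lowest, and the difference did not pass (log2 fold change −0.65, SE 1.16, limma adjusted p = 0.74). Slc3a2, the heavy chain that partners both Slc7a11 and Slc7a5, showed the same order within Nelfb-/- cells at 362, 159 and 181 CPM, against 318, 284 and 252 CPM in CTL. Without Nelfb-/- replicate 1, the limma adjusted p was 0.021 for Slc7a11 and 0.033 for Slc3a2, with log2 fold changes of −2.09 and −0.74.

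The enzymes of serine synthesis and one-carbon metabolism had another order of the libraries than Slc7a11. Phgdh (chr3:98313170-98339990), the first enzyme of serine synthesis, was at 17.3, 14.5 and 44.7 CPM in CTL and at 3.04, 13.9 and 17.4 CPM in Nelfb-/- cells (log2 fold change −1.31, SE 0.74, limma adjusted p = 0.27), and an annotated pseudogene, Phgdh-ps1, could share its reads. CTL replicate 3 was the highest library and Nelfb-/- replicate 1 the lowest. Shmt2, the mitochondrial serine hydroxymethyltransferase, was at 51.5, 52.9 and 131 CPM in CTL and at 26.9, 88.0 and 79.9 CPM in Nelfb-/- cells. For all 5 of Psat1, Phgdh, Psph, Shmt2 and Mthfd2, CTL replicate 3 was the highest CTL library and Nelfb-/- replicate 1 the lowest Nelfb-/- library, while over all genes tested these shares were 47.9% and 45.0%. Over the whole ATF4 group they were 13 and 9 of 16, and Asns, Sesn2, Slc7a5 and Ddit4 showed both as well. None of the 5 passed the adjusted p, and Mthfd2, a mitochondrial folate enzyme, had groups that did not overlap, with CTL libraries at 46.9, 48.5 and 107 CPM and Nelfb-/- libraries at 32.9, 38.2 and 41.9 CPM. The log2 fold change of Phgdh was −0.81 without CTL replicate 3 and −0.53 without Nelfb-/- replicate 1. That of Shmt2 was −0.31 with all libraries and turned to 0.14 and 0.24, and that of Psph was 0.78 and 0.43, none of them passing.

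Of the remaining ATF4 genes, Ddit4, an inhibitor of mTORC1, was at 73.7, 79.9 and 356 CPM in CTL and at 56.1, 111 and 94.0 CPM in Nelfb-/- cells, with a log2 fold change of −0.61 that turned to 0.12 without CTL replicate 3. Slc7a5, the large neutral amino acid transporter subunit, had overlapping groups too (log2 fold change −0.33, limma adjusted p = 0.61). Sesn2, a leucine sensor, was the least different between the groups with 58.7 to 68.3 CPM in CTL libraries and 57.1 to 61.8 CPM in Nelfb-/- ones (log2 fold change −0.05, SE 0.12). Psph, the last enzyme of serine synthesis, was the single gene of this group with a higher mean in Nelfb-/- cells on the log2 scale (0.12, SE 0.59), although CTL replicate 3 was its highest library, with 7.5, 8.44 and 31.5 CPM in CTL and 8.85, 17.6 and 16.4 CPM for Nelfb-/-.

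**Figure D2:**
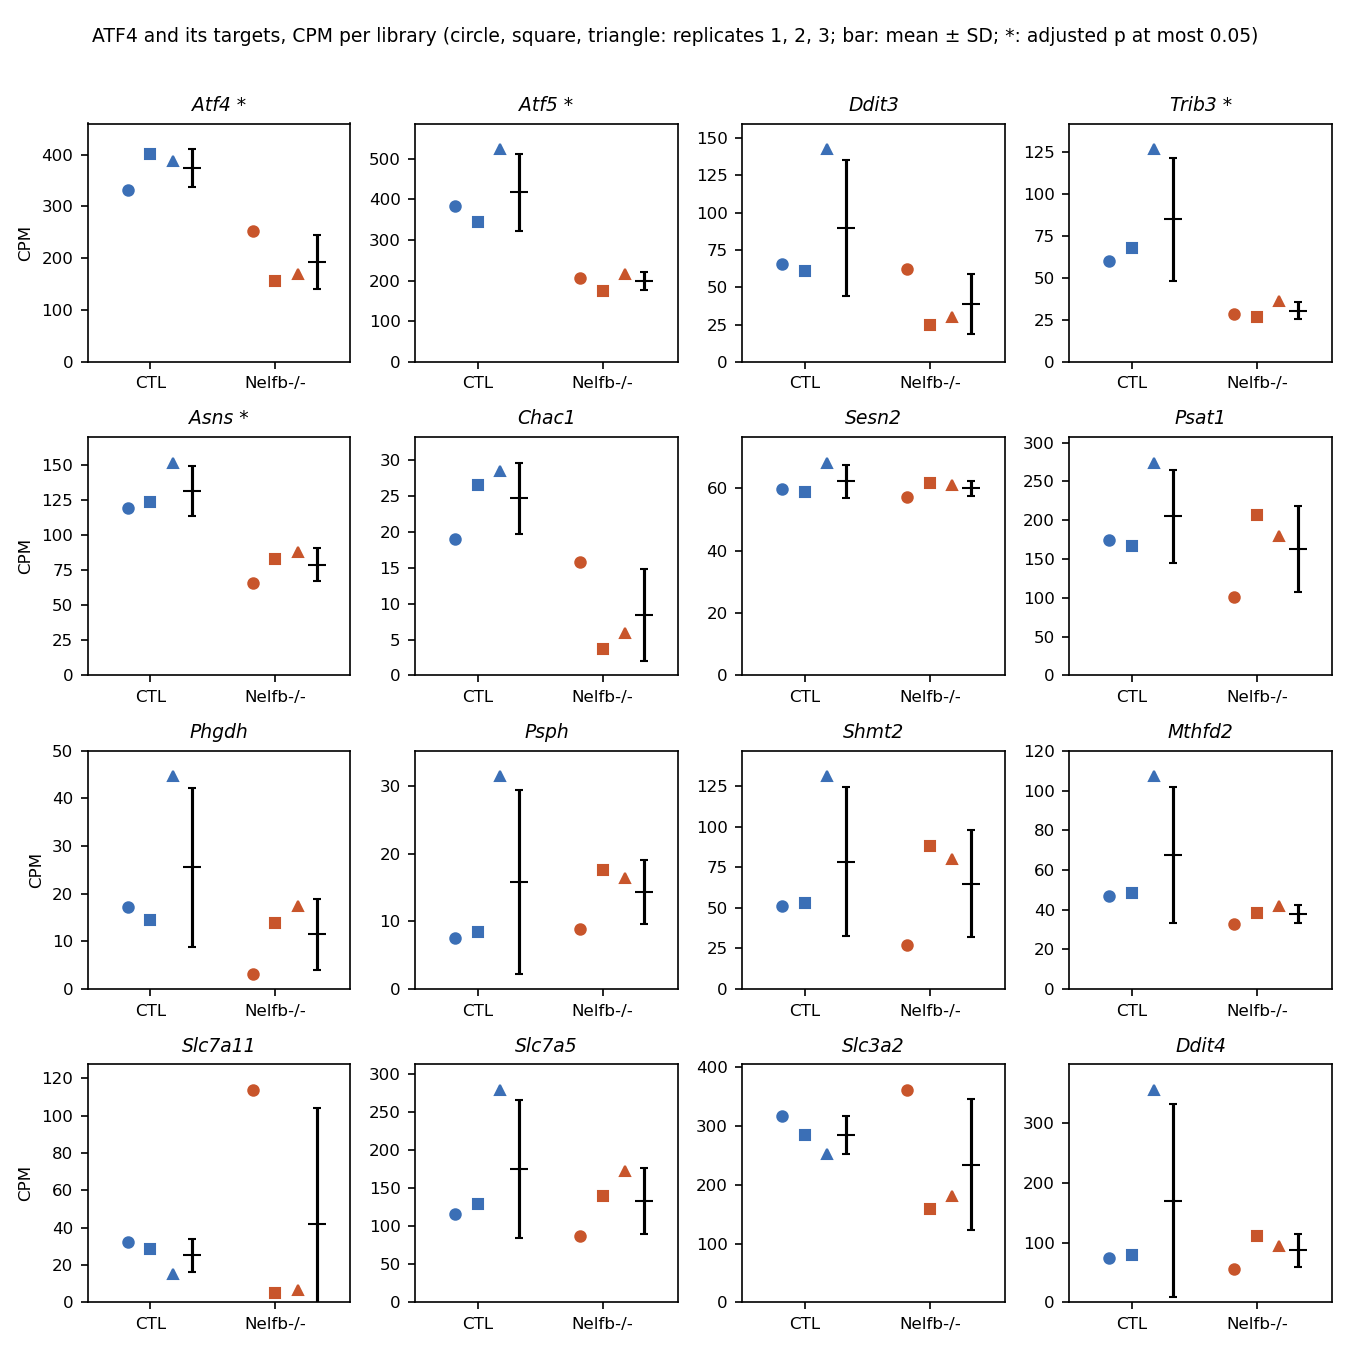
CPM (vertical axes from 0) of the 16 ATF4 genes in each library, CTL in blue and Nelfb-/- in orange, with circles, squares and triangles for replicates 1, 2 and 3 and the bar for the mean ± SD of 3 libraries (the lower end for Slc7a11 runs below 0 and is not drawn). Atf4, Atf5, Trib3, Asns, Chac1 and Mthfd2 have all Nelfb-/- libraries below all CTL libraries. Nelfb-/- replicate 1 sits with CTL for Ddit3 and at 114 CPM for Slc7a11, and CTL replicate 3 stands alone for Ddit4 at 356 CPM.

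As the second component crosses the genotypes, the difference was also taken within each of its 2 sets of libraries, as values without a test. The first set held CTL replicates 1 and 2 and Nelfb-/- replicate 1, and the second held CTL replicate 3 and Nelfb-/- replicates 2 and 3. Nelfb-/- was the lower in both sets for 13 of 16 ATF4 genes, 7 of 10 mitochondrial and 10 of 20 cytosolic synthetases, against 32.2% of all genes tested. It was the higher in both sets for 0, 0 and 5 genes of these groups and for 41.2% of all genes tested. Atf4 differed by −0.53 and −1.25 on the log2 scale in the first and second set, Trib3 by −1.16 and −2.02, and Asns by −0.88 and −0.83. Phgdh differed by −2.37 and −1.52 and Shmt2 by −0.96 and −0.65, and Psat1 and Mthfd2 were likewise lower in Nelfb-/- cells on each side. The 3 ATF4 genes whose sets were opposite in sign were Slc7a11, at 1.91 in the first set and −1.44 in the second, Slc3a2, at 0.27 and −0.57, and Psph, at 0.15 and −0.89. The sets were defined from the same expression values, and no label names what sets them apart. In each set 1 genotype rests on a single library. Of the 46 genes, CTL replicate 3 was the highest CTL library for 39 and Nelfb-/- replicate 1 the lowest Nelfb-/- library for 29 (47.9% and 45.0% of all genes tested). Both lower the difference in their set, so that agreement between the sets is no added support.

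**Figure D3:**
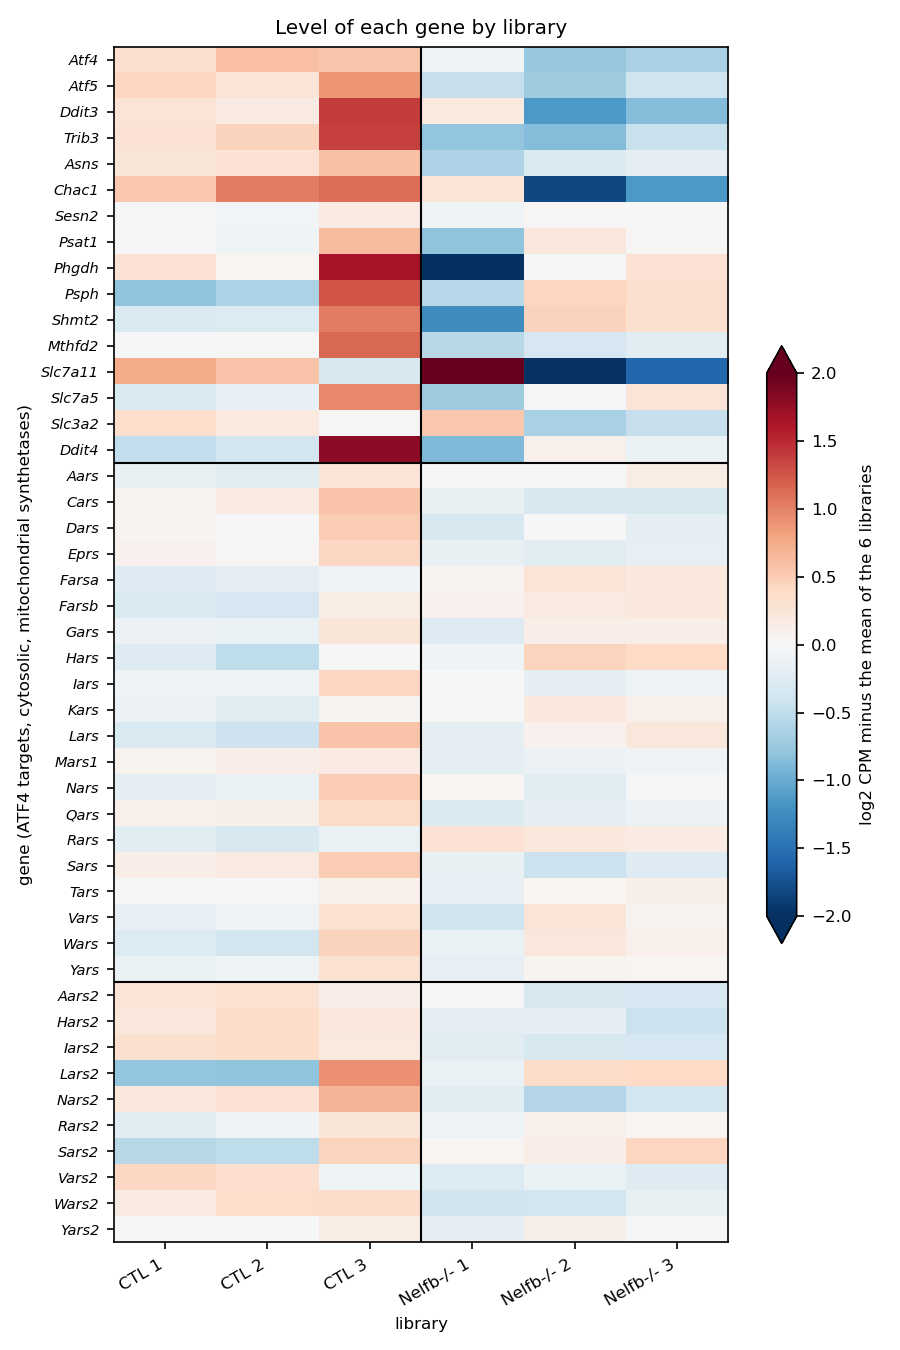
Each of the 46 genes (rows, in 3 groups) in each library (columns), coloured by its log2 CPM minus the mean of the 6 libraries, red for higher and blue for lower. CTL replicate 3 is the darkest red CTL column, being the highest CTL library for 39 of the 46 genes, and Slc7a11 and Phgdh stand at opposite ends in Nelfb-/- replicate 1.

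ATF4 with a C/EBP partner binds a composite element whose core is often written TGATGNAA. Promoter windows of 300 bases (250 before to 50 after the RefSeq start site, GRCm38.p6) were at hand for 37 of the 46 genes and were searched on both strands. The core was present in 4 of 15 ATF4 genes, 5 of 13 cytosolic and 0 of 9 mitochondrial synthetases with a window, and in 4.51% of all 27025 genes with a window (3.97% of all 32851 windows, as some genes have several). Sites of 8 of these 9 genes are shown, in 30 bases read 5′ to 3′ on the gene's strand, with the core or its reverse complement in capitals, so that the form found at the genes that fell can be set beside that at genes that did not.
Trib3, chr2:152344028-152344057, minus strand: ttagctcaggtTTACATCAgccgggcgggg
Asns, chr6:7693214-7693243, minus strand: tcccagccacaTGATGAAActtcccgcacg
Chac1, chr2:119351038-119351067, plus strand: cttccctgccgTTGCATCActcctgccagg
Gars, chr6:55037960-55037989, plus strand: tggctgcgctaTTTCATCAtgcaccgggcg
Iars, chr13:49682126-49682155, plus strand: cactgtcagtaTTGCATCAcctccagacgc
Tars, chr15:11399655-11399684, minus strand: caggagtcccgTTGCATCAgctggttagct
Yars, chr4:129189895-129189924, plus strand: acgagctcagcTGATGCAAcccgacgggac
Slc7a11 held 2 matches in opposite orientation, 11 bases apart, shown here in an 80-base stretch.
Slc7a11, chr3:50443619-50443698, minus strand: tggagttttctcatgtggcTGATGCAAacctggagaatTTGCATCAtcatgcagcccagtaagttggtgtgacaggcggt

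Of the 9 genes with a core in the window, 2 fell (Trib3 and Asns), 7 had a lower mean and the median log2 fold change was −0.18. Of the 28 genes whose window held none, 5 fell, 21 had a lower mean and the median was −0.37. Of all genes tested 5.83% fell and 45.4% had a lower mean. Tars, with the core 15 bases before its start site, was at 81.9 to 91.0 CPM in CTL and 75.4 to 91.2 CPM in Nelfb-/- cells. A match describes these letters and shows no binding, and a window without one can have a site elsewhere.

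Of the 20 cytosolic synthetases, 0 passed the limma adjusted p, while 6 had an unadjusted p under 0.05, as did 5278 of the 16252 genes tested. A test of each gene alone, without shared variance, passed 1 of the 20, Rars. The means were lower in Nelfb-/- cells for 11 and higher for 9. Every Nelfb-/- library was below every CTL library for 5 (Cars, Eprs, Mars1, Qars and Sars) and above for 2 (Farsa and Rars), set against the 16.1% and 22% of all genes given above. The largest fold of a cytosolic gene was 1.46 downwards and 1.42 upwards.

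Sars (chr3:108424865-108445209), which charges serine tRNA, was at 163, 168 and 210 CPM in CTL and at 134, 110 and 124 CPM in Nelfb-/- cells. The log2 fold change was −0.55 (SE 0.16) and the limma adjusted p 0.062, which came to 0.037 at the lowest with another scaling between libraries. Cars (chr7:143557230-143600090), for cysteine, was at 59.7, 64.5 and 84.9 CPM in CTL and at 52.1, 46 and 45.9 CPM in Nelfb-/- cells (−0.52, SE 0.17, limma adjusted p = 0.084). In both, the groups were apart and CTL replicate 3 was the highest.

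Rars (chr11:35808381-35834506), for arginine, was described after its values were seen as the clearest gene in the other direction. It was at 75.6, 70.2 and 79.7 CPM in CTL and at 106, 101 and 97.8 CPM in Nelfb-/- cells, with groups apart and a difference of 0.44 on the log2 scale (SE 0.12, limma adjusted p = 0.053). Farsa and Farsb, which encode the 2 subunits of the phenylalanine enzyme, had log2 fold changes of 0.36 and 0.32. Hars, for histidine, had the largest positive value (0.51, SE 0.21, limma adjusted p = 0.15), with overlapping groups. Without CTL replicate 3, Rars and Farsb passed, at limma adjusted p = 0.038 and 0.039.

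The other cytosolic genes, including Aars, Gars, Tars, Vars and Yars for alanine, glycine, threonine, valine and tyrosine, had log2 fold changes between −0.40 (Qars) and 0.20 (Kars). CTL replicate 3 was the highest CTL library in 20 of 20 cytosolic synthetases, against 47.9% of all genes tested. Lars, for leucine, was an example, at 55.3, 51.5 and 102 CPM in CTL and at 60.8, 72.9 and 80.3 CPM in Nelfb-/- cells.

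Among the 10 mitochondrial synthetases, 3 fell, 0 rose and 7 had a lower mean in Nelfb-/- cells, with 6 having every Nelfb-/- library below every CTL library. Of all genes tested 5.83% fell, 9.96% rose, 45.4% had a lower mean and 16.1% had groups apart in this direction. Iars2 (chr1:185284726-185329396), for isoleucine, was at 105, 110 and 97.2 CPM in CTL and at 72.1, 67.7 and 66.7 CPM in Nelfb-/- cells. The spread within each group was small, and it fell by 0.59 (SE 0.12, limma adjusted p = 0.022). Its exons share 2034 bases, 22.9% of its exonic length, with Rab3gap2 on the opposite strand. As the strand setting of the counting is not given in the sources used here, reads there could belong to either gene, and Rab3gap2 itself differed by 0.07 on the log2 scale (limma adjusted p = 0.89).

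Nars2 (chr7:96951505-97064758), for asparagine, was at 12.3, 13.1 and 17.0 CPM in CTL and at 9.06, 7.10 and 8.24 CPM in Nelfb-/- cells, and it fell by 0.79 (SE 0.20, limma adjusted p = 0.045). Wars2 (chr3:99141068-99239186), for tryptophan, was at 15.9, 17.8 and 18.1 CPM in CTL and at 10.6, 10.8 and 12.6 CPM in Nelfb-/- cells, and it fell by 0.61 (SE 0.16, limma adjusted p = 0.047). Both had groups that did not overlap, at levels well above the floor. With 1 library left out at a time, the adjusted p ranged from 0.017 to 0.11 for Iars2, from 0.045 to 0.15 for Nars2 and from 0.061 to 0.17 for Wars2. Iars2 missed the limit without CTL replicate 1 or 2 or Nelfb-/- replicate 2 or 3, Nars2 without any library but Nelfb-/- replicate 1, and Wars2 without any library. In the test of each gene alone Iars2 passed (adjusted p = 0.027), while Nars2 and Wars2 did not (0.079 and 0.051), and limma without the abundance trend gave 0.054 for Wars2. With the replicate number as a block 0 mitochondrial synthetases passed, although these numbers did not pair the libraries.

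Hars2 (chr18:36783008-36792562), for histidine, was at 24.1, 26.6 and 23.9 CPM in CTL and at 18.2, 18.2 and 15.3 CPM in Nelfb-/- cells (log2 fold change −0.53, SE 0.15, limma adjusted p = 0.053, and 0.038 or 0.037 with the values scaled by the median of ratios or the upper quartile). It shares 195 exonic bases with its head-to-head neighbour Hars. Aars2 (chr17:45506841-45520843), for alanine, was at 12.6, 13 and 11.6 CPM in CTL and at 10.3, 8.50 and 8.40 CPM in Nelfb-/- cells (−0.45, SE 0.17, limma adjusted p = 0.12). Vars2 had groups apart in the same direction (−0.44, limma adjusted p = 0.14, and 0.032 without CTL replicate 3).

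The other 4 had overlapping groups. Lars2 (chr9:123366927-123462666), for leucine, was at 155, 151 and 497 CPM in CTL and at 241, 341 and 348 CPM in Nelfb-/- cells. Among CTL libraries, replicate 3 alone stood above the Nelfb-/- ones. The difference of 0.43 on the log2 scale (SE 0.48) did not pass (limma adjusted p = 0.57), while leaving out CTL replicate 3 gave 1.0 (limma adjusted p = 0.024). Sars2 was at 2.57, 2.66 and 5.13 CPM in CTL and at 3.89, 4.13 and 5.10 CPM in Nelfb-/- cells. Rars2 and Yars2 had log2 fold changes of 0.03 and −0.07.

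**Figure D4:**
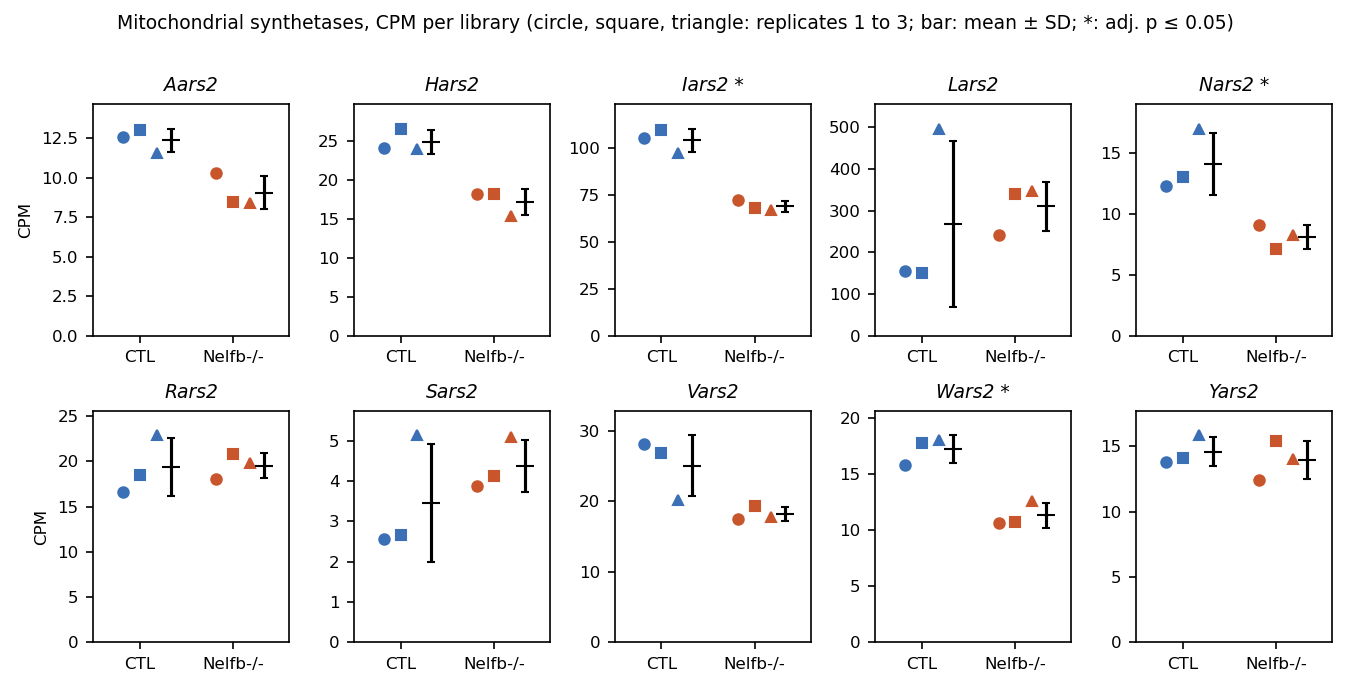
CPM (vertical axes from 0) of the 10 mitochondrial synthetases in each library, CTL in blue and Nelfb-/- in orange, with circles, squares and triangles for replicates 1, 2 and 3 and the bar for the mean ± SD of 3 libraries. Iars2, Nars2 and Wars2 (starred, limma adjusted p at most 0.05) and Aars2, Hars2 and Vars2 have all Nelfb-/- libraries below all CTL libraries, and Lars2 in CTL replicate 3 reaches 497 CPM.

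For 10 amino acids both enzymes were listed, and the log2 ratio of the mitochondrial to the cytosolic gene was taken within each library, which leaves out any scaling between libraries. The CPM are not corrected for length, so that only the difference of a ratio between groups was read. The ratio was lower in Nelfb-/- cells for 8 pairs and higher for 2. Hars2 to Hars had the most negative difference, with −0.48 ± 0.34 in CTL and −1.52 ± 0.38 in Nelfb-/- cells (SD, n = 3). The pairs for tryptophan, asparagine, alanine, isoleucine, arginine, valine and tyrosine differed by −0.73, −0.65, −0.53, −0.41, −0.41, −0.40 and −0.02. That for leucine differed by 0.34 and that for serine by 0.95, with a lower mean of Sars and a higher mean of Sars2 in Nelfb-/- cells. The two-sided exact permutation p lay between 0.1 and 0.8 (0.2 to 0.8 adjusted over the 10 pairs), and since this test cannot go below 0.1 with 3 against 3 libraries, it cannot decide whether a pair differs.

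Upstream of ATF4, 1 of the 4 eIF2alpha kinases rose, as did 9.96% of all genes tested. Eif2ak2 (PKR, which senses double-stranded RNA) was at 42.7, 24.7 and 48.1 CPM in CTL and at 85.5, 87.7 and 78.4 CPM in Nelfb-/- cells, and it rose by 1.18 on the log2 scale (SE 0.26, limma adjusted p = 0.029). The kinases for heme and mitochondrial stress, Eif2ak1, for ER stress, Eif2ak3, and for uncharged tRNA, Eif2ak4, had log2 fold changes of 0.10, 0.24 and −0.21 and did not pass. Of 10 genes of eIF2, its exchange factor and its phosphatases, 2 fell (5.83% of all genes tested did), and both were regulatory subunits that direct dephosphorylation of eIF2alpha. Ppp1r15a (GADD34), itself an ATF4 target, was at 134, 171 and 161 CPM in CTL and at 95.8, 37.2 and 36.4 CPM in Nelfb-/- cells, and it fell by 1.61 (SE 0.38, limma adjusted p = 0.037). Ppp1r15b (CReP), the constitutive counterpart, was at 311, 308 and 237 CPM in CTL and at 170, 165 and 163 CPM in Nelfb-/- cells, and it fell by 0.77 (SE 0.16, limma adjusted p = 0.023).

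Of 30 other genes listed as ATF4 targets, 6 fell and 0 rose, 23 had a lower mean and the median log2 fold change was −0.59, while of all genes tested 5.83% fell, 9.96% rose and 45.4% had a lower mean. Cbs, which makes cystathionine from homocysteine and serine, was at 20.7, 17.3 and 5.75 CPM in CTL and at 1.66, 1.05 and 1.22 CPM in Nelfb-/- cells, and it fell by 3.26 (SE 0.51, limma adjusted p = 0.012). Pck2, the mitochondrial phosphoenolpyruvate carboxykinase, was at 109, 122 and 150 CPM in CTL and at 33.0, 42.4 and 47.9 CPM in Nelfb-/- cells, and it fell by 1.63 (SE 0.19, limma adjusted p = 0.0060). Gpt2, the mitochondrial alanine transaminase, fell by 1.06 (SE 0.25, limma adjusted p = 0.036). The other 3 that fell were Nupr1, Eif4ebp1 and Slc7a1.

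Other stress genes were set beside these. Of 20 ER stress genes of the other arms 2 fell, Herpud1 (by 0.93, SE 0.14, limma adjusted p = 0.011) of ER-associated degradation and the transcription factor Xbp1 (by 0.76, SE 0.17, limma adjusted p = 0.033), and the median was −0.31. Of 10 mitochondrial stress genes 3 fell, the chaperones Dnaja3 (by 0.98, SE 0.15, limma adjusted p = 0.010) and Hspa9 (by 0.85, SE 0.21, limma adjusted p = 0.039) and the protease Clpp (by 0.63, SE 0.15, limma adjusted p = 0.040), and 9 of the 10 had a lower mean with a median of −0.56. Of the 15 remaining synthetase genes 2 fell, Tarsl2, a second threonine enzyme (by 1.13, SE 0.18, limma adjusted p = 0.012), and Fars2, the mitochondrial phenylalanine enzyme (by 0.56, SE 0.14, limma adjusted p = 0.045), and the median was −0.04. In none of these 3 lists did a gene rise at the limma adjusted p, which 9.96% of all genes tested did, and 5.83% of them fell.

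**Figure D5:**
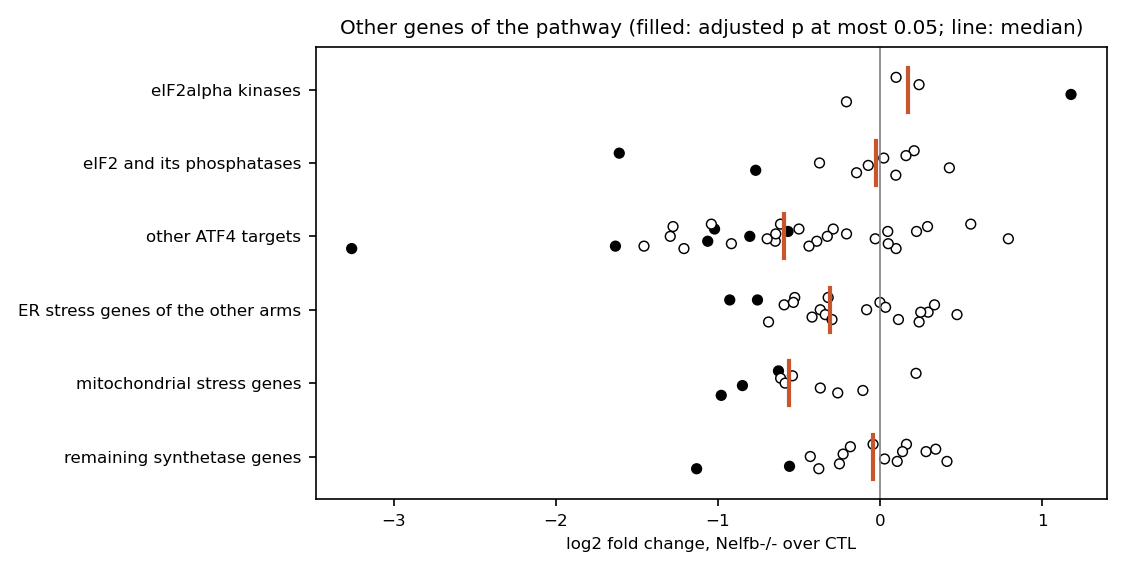
Log2 fold change (Nelfb-/- over CTL, horizontal axis) of each gene in 6 further lists of the pathway, with the median of each list as a line and filled points for a limma adjusted p of at most 0.05. Eif2ak2 is the single filled point to the right of 0, and Cbs lies farthest to the left at −3.26.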

How the data were processed

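The values deposited by the authors are CPM of 6 libraries, with an offset of 0.0001 that was subtracted here. The submitters' processing notes name STAR 2.7, Partek 9.0.20.0202 and mm10. The methods describe alignment to mm10, a threshold of 10 reads and analysis of variance in Partek, and the counting and its strand setting are not given in the sources used here. The depth was read from the smallest step of each library, and among values worth 20 reads or fewer, 72.0% to 75.3% came out as whole reads (tolerance 0.05), so that no count test was run. Values were brought to a common scale of 22.3 M reads (M, 1e+06), genes averaging 10 or more reads over all libraries were kept, and log2(value + 1 read) was fitted with limma 3.58.1 (R 4.3.3), with an abundance trend in the variance. P-values are two-sided and adjusted by Benjamini and Hochberg over 16252 genes, and a fold change on this scale understates that of low genes. The limits were an adjusted p of 0.05 and, where said, a 2-fold change. The procedure was also run on simulated libraries with noise drawn independently for each gene. These lack the second component of the data, so that no conclusion is drawn from them. The methods call the libraries biological triplicates.

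Levels in every library were given for Nelfb, the members that passed, Atf4, Ddit3, Asns, Chac1 and Phgdh, and in each group the 2 largest changes that did not pass. Of each further list up to 3 passing genes were named with their change, and all 4 eIF2alpha kinases. Slc7a11, Slc3a2, Shmt2, Mthfd2, Psph, Ddit4, Tars, Rars, Lars, Lars2 and Sars2, the 2 sets of libraries, the gene pairs and the searched motif were added with values known. The members and lists were chosen with earlier results of these data known. The positions are 1-based mm10 coordinates of the deposited table, of which 17551 of 17924 genes were matched by name to GENCODE M21 for exon overlaps. Among others, Aars shared 14.3% of its exonic length with Exosc6 on the same strand. Psph shared 10.4% with Cct6a and Farsb 9.5% with Sgpp2 on the opposite strand, and Kars has an annotated pseudogene, Kars-ps1. Reads there could belong to either gene. Promoter sequences are from RefSeq (GRCm38.p6). Counting error alone underlies the floor of 3 reads. The promoter sequence of 1 gene with a match is not reported here.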

Additional observations from a re-analysis of the deposited data

How the results depend on the processing

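The 7 genes that fell kept their sign in 112 of 112 fits with another setting. Over the 46 genes and 16 settings, 649 of 736 values kept direction and side of the limit, 41 fell short of it, 13 newly passed and 33 changed sign, none of these passing with or without the change. With median-of-ratios or upper-quartile scaling the sign changed for Gars (−0.068 and −0.067) and Rars2 (both −0.044). The other changes of sign came from leaving out 1 library, where the log2 fold change ran from −0.064 to 0.13 for Gars, −0.076 to 0.15 for Rars2, −0.25 to 0.78 for Psph, −0.084 to 0.41 for Lars, −0.023 to 0.23 for Aars, −0.026 to 0.38 for Wars, −0.092 to 0.017 for Sesn2, −0.61 to 0.24 for Shmt2, −0.56 to 0.067 for Slc7a5, −1.01 to 0.12 for Ddit4, −0.26 to 0.081 for Nars, −0.071 to 0.066 for Tars, −0.18 to 0.15 for Vars, −0.13 to 0.089 for Yars, −0.14 to 0.014 for Yars2 and −2.09 to 0.18 for Slc7a11. With a test of each gene alone, without moderation, 684 genes were differentially expressed and 1126 passed, with 0 and 0 of the ATF4 group, 1 cytosolic and 1 mitochondrial synthetase passing. With either of the 2 scalings 1 cytosolic synthetase passed, Sars, and 4 mitochondrial ones with Hars2, and Atf4 reached the 2-fold limit. The replicate numbers did not pair the libraries: same-numbered libraries deviated together with r of 0.52, −0.39 and 0.52, and CTL replicate 2 was closest to Nelfb-/- replicate 1 (0.48). With the replicate number as a block, 0 mitochondrial synthetases passed and 4 ATF4 genes did. Leaving out each library in turn gave 447 to 2454 differentially expressed genes and 455 to 3641 passing ones. In the ATF4 group 0 to 5 were differentially expressed and 0 to 7 passed, with 0 for both without Nelfb-/- replicate 2 or 3 and 7 passing without replicate 1. Cytosolic synthetases passing numbered 0 to 2 and mitochondrial ones 0 to 3, and the medians ran from −0.87 to −0.54 (ATF4), −0.09 to 0.10 (cytosolic) and −0.53 to −0.40 (mitochondrial). The fits without a library hold fewer samples. For the other settings the cause was not tested.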
